A study of Homo sapiens with 4 samples.

Results

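The PI3K-AKT-mTOR pathway and the AMPK pathway were examined through 58 named component genes: the adaptors and kinases that carry a growth factor signal to AKT, the TSC complex, mTOR and its partners, the Rag GTPases and their regulators, and the LKB1 and AMPK subunits. The genes were chosen by name as pathway components, and not as targets of the pathway. The list and its roles were set with earlier results of these data known. Of the 58, 57 were found under their own symbol among 40205 listed genes, and all 57 were among the 14805 genes tested. *CASTOR2* was the remaining gene. It was found only as the near-identical older entries *GATSL1*, with 3 and 1 reads in NC and 1 and 0 in si-circZFR, and *GATSL2*, with 12 and 8 reads in NC and 3 in each si-circZFR library, and was not tested.

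RNA sequencing was carried out on human lung adenocarcinoma cells transfected for 24 h with a negative control (NC, 2 libraries) or with a small interfering RNA against the circular RNA circZFR (si-circZFR, 2 libraries), which is formed from exons of *ZFR*. All 4 libraries came from cells in medium with serum, and glucose starvation was not part of them. The sample labels name the cell line H1299, whereas the series text and the methods name A549, which is known to carry a truncating mutation of *STK11*. The labels do not say whether the libraries came from separate cultures, so the p-values measure only the spread between these samples. The libraries held 11040050 to 12816868 reads. *ZFR*, the gene of the circle, was at 26.0 and 32.3 scaled RPKM in NC and at 5.22 and 4.60 in si-circZFR (log2FC -2.34, SE 0.185, FDR = 0.0120 by limma), and the values do not separate the circle from linear *ZFR*. H1299 is known to lack *CDH1*, but *CDH1* lay between 8.63 and 21.6 scaled RPKM in the 4 libraries. Of the other A549 markers, *AKR1B10*, *AKR1C1* and *ALDH3A1* were at 511.8 scaled RPKM or above in every library, and *FGB* was low, at 0.775 to 2.58.

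Growth factor receptors recruit IRS adaptors and PI3K, whose lipid product brings PDPK1 and AKT together at the membrane, and AKT then restrains FOXO factors, GSK3 and the TSC complex. With TSC restrained, RHEB activates mTORC1, which is also brought to the lysosome by Rag GTPases when amino acids are present. AMPK, switched on by LKB1 when cellular energy is low, opposes mTORC1. The pathway is run largely by phosphorylation, which RNA levels do not measure.

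Values are given as RPKM (read counts divided by transcript length in kilobases and by the library's mapped reads), scaled between libraries so that the middle part of the genes had the same level. Log2 fold changes (log2FC) are si-circZFR minus NC on log2(scaled RPKM + 1), which understates the change of genes with low values. A gene passed with an FDR under 0.05 and a log2FC beyond 1 in either direction. Each value is a share of its library's reads, so that fewer cells with a transcript and less transcript per cell cannot be told apart. None of the 57 components passed, beside 1.21% of all genes tested (179 genes, 0.426% of those tested being higher and 0.784% lower). At an unadjusted p under 0.05, 10 of the 57 were reached (17.5%), beside 22.5% of all genes. Of these 10, 4 were higher (*PHLPP1*, *PRKAB2*, *AKT1* and *GSK3B*), beside 10.6% of all genes, and 6 were lower (*NPRL2*, *PIK3R3*, *LAMTOR5*, *DEPTOR*, *PIK3R2* and *FOXO3*), beside 11.9%. The 2 groups of libraries did not overlap for 31 components, 16 higher and 15 lower (54.4%), beside 55.9% of all genes, of which 27.8% were higher and 28% lower. The log2FC was above 0 in 31 components (54.4%) and in 50.4% of all genes tested, and the median log2FC was 0.02 over the components and 0.0035 over all genes tested.

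These counts moved with the library left out. Without NC 1, 980 genes passed, *PRKAB2* among them (log2FC 1.03, FDR = 0.0278 by limma), and without NC 2 none passed, although 2897 had an unadjusted p under 0.05. The number passing was 59 without si-circZFR 1 and 4 without si-circZFR 2. The number of components at an unadjusted p under 0.05 was 3 without si-circZFR 1 (*NPRL2*, *PHLPP1* and *PRKAB2*, or 5.26%, beside 13.1% of all genes) and 1 without si-circZFR 2 (*PHLPP1*, or 1.75%, beside 9.26% of all genes). When library size alone set the scale, the median log2FC was 0.15 over all genes and 0.19 over the components. Under it, 9 components were higher and 1 lower (*PIK3R3*) at an unadjusted p under 0.05, beside 17.1% and 6.998% of all genes. With limma-voom on the recovered reads the split was 8 higher and 5 lower, beside 11.7% and 11.9%.

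**Figure D1:**
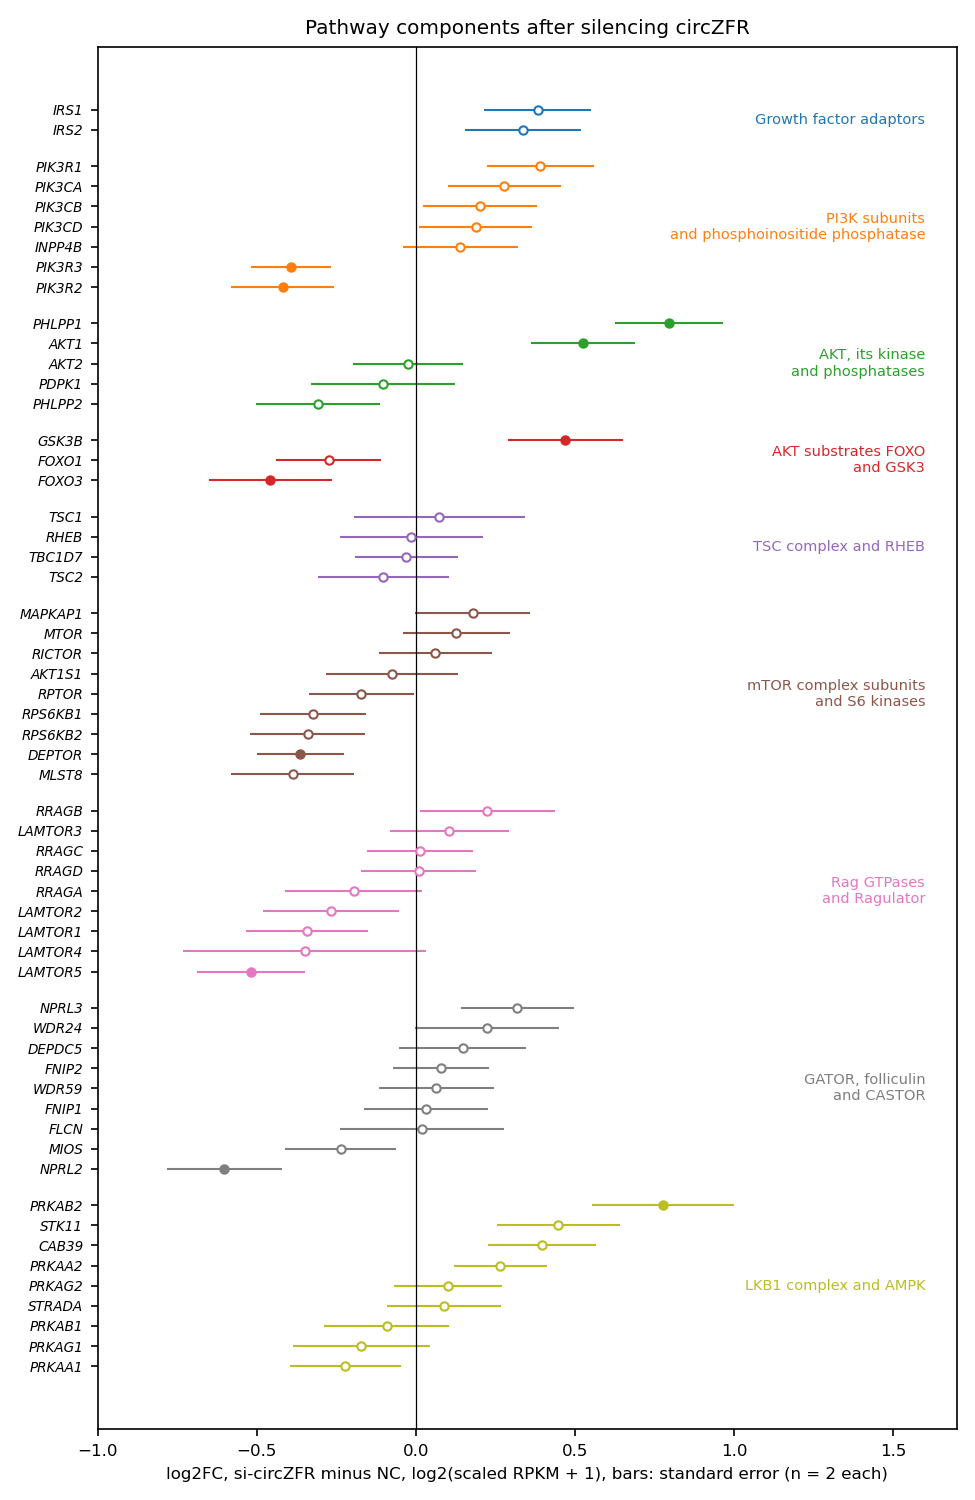
Log2 fold change (si-circZFR minus NC, log2(scaled RPKM + 1)) of the 57 components tested, grouped by role. Bars are the standard error from limma, and filled points have an unadjusted p under 0.05. No component reached a log2FC of 1, and the values ran from -0.60 for *NPRL2* to 0.79 for *PHLPP1*.

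At the head of the pathway, RNA of both insulin receptor substrates and of all 3 catalytic PI3K subunits among the components was higher after silencing. Each was higher in both si-circZFR libraries than in either NC library, beside 27.8% of all genes, though none reached an unadjusted p under 0.05. *IRS1*, which couples the insulin and IGF receptors to PI3K, was at 12.3 ± 0.14 scaled RPKM in NC and 16.3 ± 1.7 in si-circZFR (SD, n = 2 each), with a log2FC of 0.38 (SE 0.17, FDR = 0.240 by limma). It had an unadjusted p under 0.05 with library size only, with a filter on RPKM (at least 1 in at least 2 libraries), with no filter and with limma-voom. After a correction for gene length the log2FC of *IRS1* was 0.25, with an unadjusted p of 0.177 by limma. With 1 library left out it ran from 0.29 (without si-circZFR 1) to 0.49 (without si-circZFR 2). *IRS2* had a log2FC of 0.34, and *PIK3CA*, *PIK3CB* and *PIK3CD* had 0.28, 0.20 and 0.19. The share of *IRS1* in the sum of both adaptors stayed between 72.0% and 74.9% in the 4 libraries, with the groups overlapping.

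The regulatory subunits of PI3K differed in direction. *PIK3R2*, which encodes p85 beta and was the most abundant of them, was at 15.4 and 16.2 scaled RPKM in NC and at 11.7 and 11.5 in si-circZFR. The libraries of the 2 groups did not overlap, and the log2FC was -0.42 (SE 0.16, FDR = 0.189 by limma), or -0.24 with library size only. *PIK3R3*, which encodes p55 gamma and had the lowest level of all components, was at 0.840 and 0.740 in NC and at 0.366 and 0.358 in si-circZFR. These values rest on 56, 48, 24 and 25 reads, and the log2FC was -0.39 (SE 0.13, FDR = 0.14 by limma). At this low level the pseudocount of 1 damped the value, which was -0.94 with a pseudocount of 0.1 and -1.11 with limma-voom (FDR = 0.111). *PIK3R1*, which encodes p85 alpha, went the other way, with a mean of 2.08 ± 0.14 in NC and 3.04 ± 0.05 in si-circZFR (SD, n = 2 each) and a log2FC of 0.39 (SE 0.17, FDR = 0.231 by limma). Its share of the 3 regulatory transcripts was 11.8% and 10.5% in NC and 19.95% and 20.7% in si-circZFR, and *PIK3R2* went from 83.6% and 85.6% to 77.6% and 76.9%. Such shares within a library do not depend on the scaling between libraries, but they were not corrected for gene length. *INPP4B*, a phosphatase that removes a PI3K product, had a log2FC of 0.14.

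The smallest p of the 57 components belonged to a phosphatase of AKT. *PHLPP1* (GRCh38, chromosome 18, 62715541 to 62980433, plus strand), which encodes a phosphatase that dephosphorylates AKT, was at 1.65 and 1.597 scaled RPKM in NC and at 3.38 and 3.73 in si-circZFR, from 124, 117, 250 and 294 reads. The values of si-circZFR were 2.19 times those of NC and well apart from them. The log2FC was 0.79 (SE 0.17, FDR = 0.0689 by limma), so that it fell short of both thresholds, and it had an unadjusted p under 0.05 in each of the 13 alternative analyses. With limma-voom on the recovered reads, where the low level is not damped by a pseudocount of 1, the log2FC was 1.13 (FDR = 0.0314) and *PHLPP1* passed, as did 2.53% of all genes (1.15% on the higher side). Its paralogue *PHLPP2*, a phosphatase of the same kind, was at 4.42 and 3.51 in NC and at 2.715 and 3.29 in si-circZFR, with a log2FC of -0.31 (SE 0.19, FDR = 0.383 by limma). *PHLPP1* made up 27.1% and 31.3% of the PHLPP transcripts in NC and 55.4% and 53.1% in si-circZFR.

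*AKT1* (chromosome 14, 104769349 to 104795748, minus strand), which encodes the most widely expressed AKT kinase, was at 33.7 and 33.9 scaled RPKM in NC and at 51.3 and 46.9 in si-circZFR. These values rest on 1181 and 1158 reads in NC and on 1771 and 1725 in si-circZFR. Both si-circZFR libraries were higher, and the log2FC was 0.53 (SE 0.16, FDR = 0.133 by limma). *AKT2* was at 44.5, 41.7, 45.7 and 39.1 in the same order, so that the groups overlapped, with a log2FC of -0.03 (SE 0.17) that was 0.16 under scaling by library size alone. *AKT1* thus went from 43.1% and 44.8% of the sum of both in NC to 52.9% and 54.5% in si-circZFR. *PDPK1*, the kinase that phosphorylates AKT, overlapped between the groups (log2FC -0.10, SE 0.23).

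**Figure D2:**
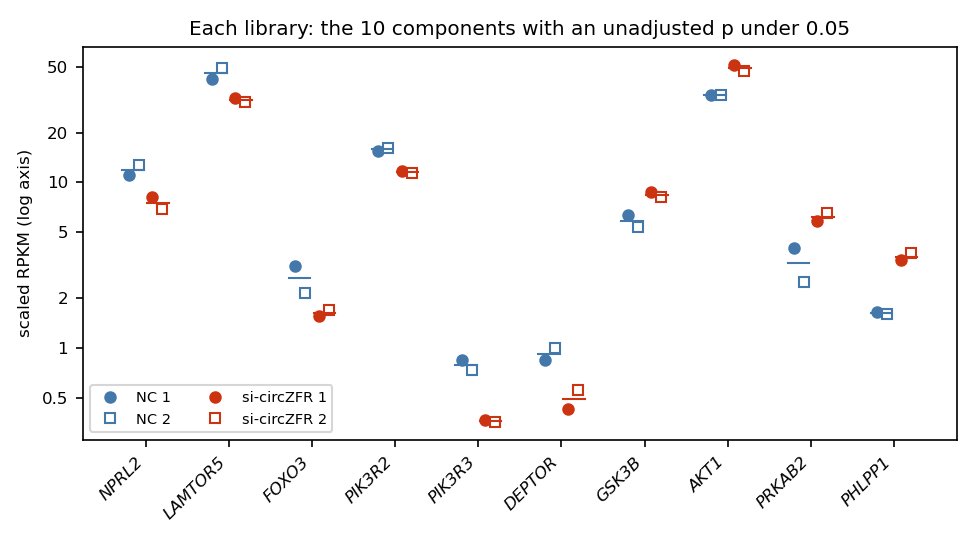
Scaled RPKM on a log axis of the 10 components with an unadjusted p under 0.05, in each of the 4 libraries. Filled circles are replicate 1, open squares are replicate 2 and bars are group means. For each gene both si-circZFR libraries lie on one side of both NC libraries, from *PIK3R3* below 1 to *AKT1* at 33.7 to 51.3.

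Of the AKT substrates, *GSK3B*, which encodes a kinase that AKT inhibits, was at 6.32 and 5.36 scaled RPKM in NC and at 8.76 and 8.14 in si-circZFR (log2FC 0.47, SE 0.18, FDR = 0.189 by limma). Its more abundant paralogue *GSK3A*, not one of the components, was lower in both si-circZFR libraries, at 132.9 and 116.3 in NC and 110 and 73.0 in si-circZFR. *GSK3A* had a log2FC of -0.47 (SE 0.24, FDR = 0.303 by limma) and no unadjusted p under 0.05, and was named after its values were seen. *FOXO3*, a transcription factor that AKT keeps out of the nucleus, was at 3.13 and 2.16 in NC and at 1.57 and 1.69 in si-circZFR (log2FC -0.46, SE 0.19, FDR = 0.222 by limma). The NC libraries differed from each other by more than the lower of them differed from si-circZFR, the log2FC was -0.27 without NC 1 and -0.66 without NC 2, and *FOXO3* reached an unadjusted p under 0.05 in 4 of 13 alternative analyses. Reads of *FOXO3* can be shared with its near-identical copy *FOXO3B*, listed separately at 1.33 and 1.05 in NC and at 0.859 and 0.952 in si-circZFR. *FOXO1* was at 1.85 ± 0.04 in NC and 1.36 ± 0.27 in si-circZFR (SD, n = 2 each), a log2FC of -0.27.

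The TSC complex and its target *RHEB* showed no separation. *TSC1*, which stabilises the complex, was at 7.91 and 4.30 scaled RPKM in NC and at 5.79 and 6.70 in si-circZFR, so that the si-circZFR libraries lay inside the range of NC. *TSC2*, the part that switches RHEB off, *TBC1D7*, the smallest subunit, and *RHEB*, the GTPase that activates mTORC1, also overlapped between the groups. The 4 log2FC values lay between -0.10 and 0.07, and those of *TSC2* and *TBC1D7* changed sign under scaling by library size alone, to 0.08 and 0.15.

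*MTOR*, which encodes the mTOR kinase, was at 12.9 ± 0.51 scaled RPKM in NC and 14.2 ± 1.4 in si-circZFR (SD, n = 2 each). It had a log2FC of 0.13 (SE 0.17, FDR = 0.690 by limma), which became -0.0017 after a correction for gene length. *RPTOR*, which defines mTORC1, was lower in both si-circZFR libraries, at 17.7 and 16.3 in NC and 15.65 and 14.3 in si-circZFR. *RPTOR* had a log2FC of -0.17 (SE 0.16), which was 0.01 with scaling by library size alone. *RICTOR*, which defines mTORC2, had 0.06 (SE 0.18), and -0.07 after the length correction. *DEPTOR*, an inhibitor of both complexes, was at 0.842 and 0.998 in NC and at 0.428 and 0.556 in si-circZFR, from 26, 30, 13 and 18 reads. Both si-circZFR libraries were lower, and the log2FC was -0.36 (SE 0.14, FDR = 0.184 by limma). It was -0.79 with a pseudocount of 0.1 and -0.88 with limma-voom (FDR = 0.250), and an unadjusted p under 0.05 was reached in 6 of 12 alternative analyses. *MLST8*, a subunit of both complexes, and the S6 kinases *RPS6KB1* and *RPS6KB2*, which mTORC1 phosphorylates, were also lower in both si-circZFR libraries than in either NC library, with log2FC values of -0.39, -0.32 and -0.34 and no unadjusted p under 0.05. *RPS6KB2*, at 51.2 ± 7.8 in NC and 40.0 ± 0.1 in si-circZFR (SD, n = 2 each), had the highest level of this group. The libraries were apart on the lower side for 5 of the 9 genes of this group (55.6%, beside 28% of all genes). None was apart on the higher side, beside 27.8% of all genes. Both counts depended on the scaling between libraries. In RPKM before scaling, *MTOR* was at 13.1 and 11.2 in NC and at 15.65 and 14.8 in si-circZFR. *RICTOR* and *MAPKAP1* were then also higher in both si-circZFR libraries, and *MLST8*, *DEPTOR* and *RPS6KB2* stayed lower. *RPTOR*, *RPS6KB1* and *AKT1S1* overlapped. The share of all genes apart before scaling was not computed.

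On the lysosomal side, 7 of the 9 Rag and Ragulator genes overlapped between the groups (77.8%), beside 44.1% of all genes tested. This count depended on the scaling between libraries. In RPKM before scaling, *RRAGB*, *RRAGC*, *RRAGD* and *LAMTOR3* were higher in both si-circZFR libraries than in either NC library. *LAMTOR1* and *LAMTOR5* stayed lower, and *RRAGA*, *LAMTOR2* and *LAMTOR4* overlapped. The share of all genes that overlapped before scaling was not computed. *LAMTOR5*, a subunit of Ragulator, the complex that anchors the Rag GTPases, was at 42.4 and 48.9 scaled RPKM in NC and at 32.5 and 30.5 in si-circZFR. Both si-circZFR libraries were lower, and the log2FC was -0.52 (SE 0.17, FDR = 0.145 by limma), or -0.27 after the length correction. *LAMTOR1*, the other gene apart on the lower side, encodes the subunit that ties Ragulator to the membrane and had a log2FC of -0.34 (SE 0.19, FDR = 0.333 by limma). *LAMTOR4* was at 45.2 and 89.8 in NC and at 36.9 and 67.1 in si-circZFR, the libraries numbered 2 being the higher ones in both groups. *RRAGA*, which encodes RagA and had the highest level of all components, was at 88.9, 118.6, 95.8 and 83.8 in the same order, with the groups overlapping and a log2FC of -0.20 (SE 0.21) that was 0.0057 without NC 2. It made up 95.4% to 97.8% of the sum of *RRAGA* and *RRAGB*.

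Of the GATOR complexes, which turn the Rag GTPases off (GATOR1) or restrain GATOR1 (GATOR2), *NPRL2* gave the lowest log2FC of all components as reported. *PIK3R3* and *DEPTOR* lay lower with a pseudocount of 0.1 and with limma-voom. *FOXO3* lay lower with limma-voom, after the length correction and without NC 2. *NPRL2* (chromosome 3, 50347330 to 50350775, minus strand), a GATOR1 subunit, was at 11.2 and 12.7 scaled RPKM in NC and at 8.17 and 6.89 in si-circZFR, from 218, 242, 157 and 141 reads. Both si-circZFR libraries were lower, and the log2FC was -0.60 (SE 0.18, FDR = 0.124 by limma). The other GATOR1 subunits had positive values, *NPRL3* with 0.32 (SE 0.18), higher in both si-circZFR libraries, and *DEPDC5* with 0.15 (SE 0.20), overlapping. *WDR59*, a GATOR2 subunit, had 0.06 (SE 0.18), and *FLCN*, the folliculin gene that regulates RagC and RagD, was at 17.7, 10.3, 12.5 and 15.1, with si-circZFR again inside the range of NC.

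In the AMPK branch the rarer isoform of 2 of the 3 subunits had a higher share in both si-circZFR libraries. Shares of this kind were not computed over all genes, so this count has no background beside it. *PRKAB2* (chromosome 1, 147155106 to 147172470, minus strand), which encodes the beta 2 subunit, was at 4.01 and 2.52 scaled RPKM in NC and at 5.87 and 6.52 in si-circZFR, from 257, 157, 370 and 438 reads. The groups did not overlap, the NC libraries differed from each other by more than the si-circZFR libraries did, and the log2FC was 0.78 (SE 0.22, FDR = 0.116 by limma). Without NC 1 it was 1.03 and passed (FDR = 0.0278 by limma), without NC 2 it was 0.52 (FDR = 0.203 by limma), and it had an unadjusted p under 0.05 in 12 of 13 alternative analyses, the exception being without si-circZFR 2. *PRKAB1*, the beta 1 subunit, overlapped between the groups (log2FC -0.09, SE 0.20). *PRKAB2* made up 22.7% and 15.2% of the beta transcripts in NC and 27.9% and 37.2% in si-circZFR. *PRKAA2*, which encodes the alpha 2 catalytic subunit and stood at 1.065 and 0.936 scaled RPKM in NC and at 1.39 and 1.42 in si-circZFR, made up 10.6% of the alpha transcripts in each NC library and 16.9% and 16.3% in si-circZFR. Its log2FC of 0.27 (SE 0.15, FDR = 0.326 by limma) did not reach an unadjusted p under 0.05. The gamma subunits overlapped in share, and *PRKAG1*, the most abundant gene of the branch at a mean of 21.2 in NC and 18.7 in si-circZFR, had a log2FC of -0.17 (SE 0.22) that was 0.01 with scaling by library size alone.

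RNA of *STK11*, which encodes the upstream kinase LKB1, was likewise higher in both si-circZFR libraries. *STK11* was at 5.64 and 5.24 scaled RPKM in NC and at 6.85 and 8.82 in si-circZFR (log2FC 0.45, SE 0.19, FDR = 0.231 by limma). A549 is known to carry a truncating mutation of *STK11*, and these values do not show whether functional LKB1 was present. *CAB39*, which encodes the scaffold MO25 that activates LKB1, had a log2FC of 0.40 (SE 0.17), and *STRADA*, its pseudokinase partner, had 0.09 (SE 0.18). None of the 3 reached an unadjusted p under 0.05 as reported. *STK11* and *CAB39* did with library size only, with the RPKM filter, with limma-voom and with no trend in the prior variance, and without si-circZFR 2 the log2FC of *STK11* was 0.29.

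**Figure D3:**
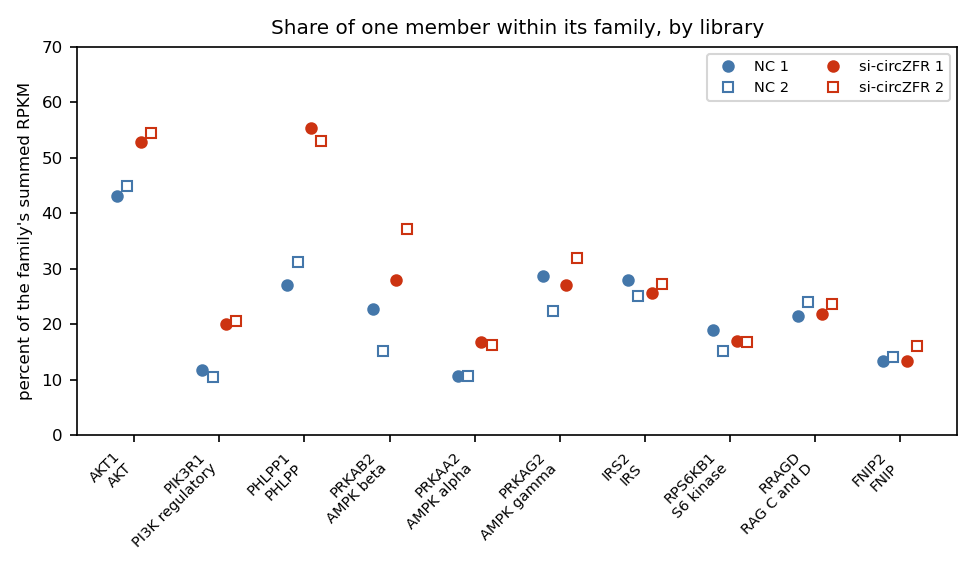
Share of 1 isoform in the summed RPKM of its family, in percent, for each of the 4 libraries, without a correction for gene length. The 2 si-circZFR libraries lie above both NC libraries for *AKT1*, *PHLPP1*, *PIK3R1*, *PRKAB2* and *PRKAA2*, with *PHLPP1* going from 27.1% and 31.3% to 55.4% and 53.1%. The groups overlap for *PRKAG2*, *IRS2*, *RPS6KB1*, *RRAGD* and *FNIP2*, and no such shares were computed over all genes.

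Sequences are shown because genes with the bases CTGACTC in the 3′UTR were on the lower side after circZFR silencing in an earlier search of these data, and because the listed siRNA has its own seed. The study listed the siRNA as CCAAGCUGGCCCUUACGUCTT. Its seed does not pair with CTGACTC, and the values do not tell which siRNA was in these libraries. Its guide strand, made as the reverse complement without the overhang, is given 5′ to 3′ with the seed (bases 2 to 8) in capitals.
siRNA guide: gACGUAAGggccagcuugg
In the mRNA strand of the annotated 3′UTR, CTGACTC was found in 5 of 57 components (8.77%) and in 11.7% of the 11399 genes tested that had a 3′UTR, and the match is in capitals in the following sites (GRCh38).
AKT1, chr14:104769507-104769529, minus strand: ggccctccCTGACTCcctgtggg
PIK3R3, chr1:46040369-46040391, minus strand: aaaaatatCTGACTCacaagaaa
PRKAB2, chr1:147157278-147157300, minus strand: actgggtgCTGACTCattcagca
PRKAB2, chr1:147156060-147156082, minus strand: aggggctgCTGACTCcagttacc
PDPK1, chr16:2599254-2599276, plus strand: acctgcctCTGACTCaactgtgt
TSC1, chr9:132895098-132895120, minus strand: ttcaggggCTGACTCtccaggga
Of these 5 genes, *AKT1* and *PRKAB2*, with 2 matches, were higher after silencing, *PIK3R3* was lower, and *PDPK1* and *TSC1* overlapped between the groups. The median log2FC was 0.07 for the components with the bases and 0.02 for those without, whereas it was -0.05 and 0.03 over all genes tested. The bases CTTACGT, which pair with the seed of the listed guide, lay in the 3′UTR of 2 components (3.51%) and of 2.8% of all genes.
PDPK1, chr16:2600211-2600233, plus strand: tagacacaCTTACGTggaattac
PRKAA2, chr1:56708457-56708479, plus strand: tacataaaCTTACGTcatttaaa
A match is a description of the sequence and shows no binding. *PDPK1* had a log2FC of -0.10 and *PRKAA2* of 0.27, neither with an unadjusted p under 0.05.

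Gene length moved with the differences. The lengths that the RPKM values imply had a median of 4926 bases over 53 components (4 were left out because the implied length was less than 50% of the annotated transcript) and 2887 bases over all genes. Over all genes no doubtful length was left out, so that the length values of the components and of all genes rest on unlike filters. Across these 53 genes, which share the 4 libraries and are not independent replicates, Spearman's rho between the log2FC and length was 0.35, beside 0.31 over all genes. Between NC 2 and NC 1, which had the same treatment, rho was -0.60 over the components and -0.39 over all genes, and between si-circZFR 2 and si-circZFR 1 it was 0.07 and 0.02. After a smooth correction for length in each library, rho was 0.07 over the components and 0.08 over all genes, and the median log2FC was -0.04 over the components and -0.02 over all genes. With this correction 10 components again had an unadjusted p under 0.05 (17.5%, beside 22.2% of all genes), *PHLPP2* and *RPS6KB1* being among them and *GSK3B* and *LAMTOR5* not. The long *PRKAB2* and *GSK3B* were lower in NC 2 than in NC 1, and the short *LAMTOR5* and *NPRL2* were higher in NC 2. The gene that gained in share was longer for *PIK3R1* (6975 bases, *PIK3R2* 4015), *PRKAB2* (5462, *PRKAB1* 2401) and *PRKAA2* (9352, *PRKAA1* 5130). It was shorter for *AKT1* (2989, *AKT2* 5300) and *PHLPP1* (6411, *PHLPP2* 8071). The part of length in any single gene's difference or in any share was not tested.

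**Figure D4:**
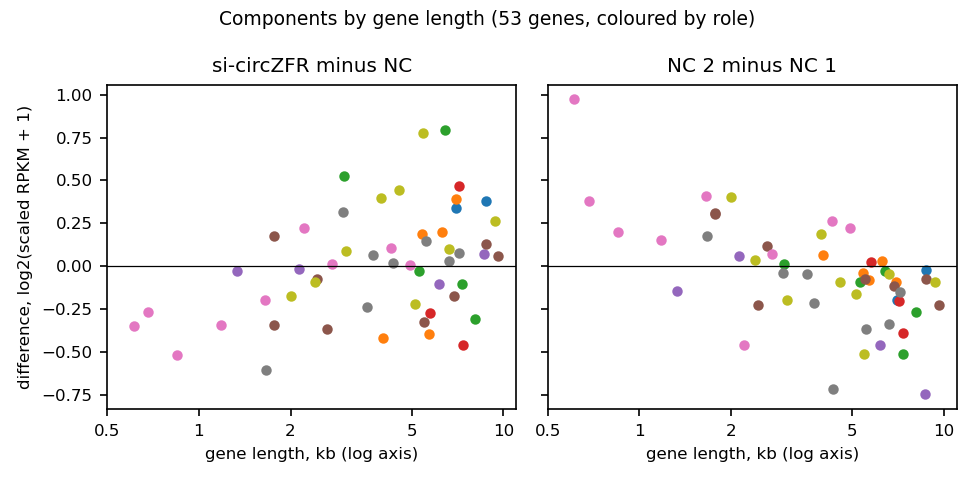
Log2 difference of the 53 components with a usable length against gene length in kilobases (log axis), in the role colours of the plot of log2FC by role, for si-circZFR minus NC (left) and for NC 2 minus NC 1 (right). Longer genes lie higher in the left panel (rho 0.35) and lower in the right one (rho -0.60).

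Other genes of the same pathways, 56 named genes of which 52 were tested (*PIK3CG*, *INPP5D*, *SESN3* and *PRKAG3* were too low), had more values below 0 than above. None passed, and 4 were higher and 8 lower at an unadjusted p under 0.05 (23.1%, beside 22.5% of all genes). The log2FC was below 0 in 31 of the 52 (59.6%, beside 49.6% of all genes). The groups were apart for 15 on the higher side (28.85%, beside 27.8%) and for 24 on the lower side (46.15%, beside 28%). The median log2FC was -0.12, against 0.02 for the 57 components and 0.0035 over all genes tested. *PIK3IP1*, an inhibitor of PI3K, was at 1.34 and 2.09 scaled RPKM in NC and at 0.442 and 0.319 in si-circZFR, from 40, 61, 13 and 10 reads (log2FC -0.96, SE 0.18, FDR = 0.0550 by limma). *SESN2*, a leucine sensor and stress-induced inhibitor of mTORC1, was at 7.15 and 5.78 in NC and 4.20 and 3.25 in si-circZFR (log2FC -0.66, SE 0.20, FDR = 0.129 by limma). *ULK1*, the autophagy kinase that mTORC1 and AMPK both phosphorylate, was at 23.0 and 15.0 in NC and 28.1 and 30.7 in si-circZFR (log2FC 0.64, SE 0.22, FDR = 0.164 by limma). *TFEB*, the lysosomal transcription factor that mTORC1 restrains, had a log2FC of 0.63, *BAD*, an apoptosis factor that AKT phosphorylates, had -0.65, and *EIF4EBP2*, a translation repressor that mTORC1 phosphorylates, had -0.46. *C7orf60* (now *BMT2*), which acts on GATOR1, had -0.70, and *NUAK1*, an AMPK-related kinase, had -0.50. Both groups of libraries were apart for each of these 8 genes.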

How the data were processed

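Total RNA gave 4 libraries made with an Ion Proton RNA-Seq kit, per the labels. The authors deposited one RPKM value per gene and library, mapped to GRCh37 per the labels, although the methods name hg38. The aligner settings and counting rules behind these files are not given in the sources used here. Groups were taken from the treatment label, and no sample was left out.

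The 58 genes, their roles and the other lists were chosen with earlier results of these data known. Whole reads were recovered for 24280 of 24289 genes above 0 (99.96%) from the steps between values, with a relative tolerance of 6e-10, and the totals were 11959335 and 12816868 reads in NC and 11266089 and 11040050 in si-circZFR. RPKM was put on one scale by trimmed means (trimming 30% of the log ratios and 5% of the levels), with factors of 0.982, 0.892, 1.02 and 1.11 (NC 1, NC 2, si-circZFR 1, si-circZFR 2). Genes with a recovered CPM above 1 in at least 2 libraries were tested on log2(scaled RPKM + 1) with limma 3.58.1 (R 4.3.3) and a trended prior variance, without a replicate block, with Benjamini-Hochberg adjustment over all 14805 genes. An RPKM filter used earlier on these data admitted short genes with few reads, and is given as an alternative.

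Named were *ZFR*, every component that passed or had an unadjusted p under 0.05, the component with the smallest p and the one with the highest level in each role, *AKT1*, *AKT2*, *MTOR*, *RPTOR*, *RICTOR*, *STK11*, and up to 8 genes of each other list by p. Further components were named after their values were seen. Gene positions, 3′UTRs and sites came from canonical transcripts of GENCODE 44 (GRCh38), matched by symbol. Same-numbered libraries did not deviate together: the correlation of the replicate differences was 0.08 over all genes. The alternatives were another scaling, another filter, a pseudocount of 0.1, limma-voom on recovered reads, a replicate block, a length correction, no trend in the prior variance, and each library left out in turn. Isoforms, splicing and protein phosphorylation were not analysed here.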

Additional observations from a re-analysis of the deposited data

How the results depend on the processing

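With 2 libraries a group, the limit was the spread between NC 1 and NC 2, whose median absolute log2 difference over the components was 0.19, against 0.13 between the si-circZFR libraries. Of 297 values of 23 named genes under the alternatives, 275 kept their direction and their side of the threshold. The number of genes passing was 179 as reported, 8 with the RPKM filter, 0 with no filter by limma (3640 at an unadjusted p under 0.05), 59 with a pseudocount of 0.1, 374 with limma-voom on recovered reads, 46 with no trend in the prior variance and 0 to 980 when 1 library was left out. With the replicate block 293 genes passed and 9 components had an unadjusted p under 0.05, *FOXO3* no longer among them, while no component passed. The numbers did not pair the samples. One component passed with limma-voom (*PHLPP1*, log2FC 1.13) and 0 to 1 when 1 library was left out (*PRKAB2*, 1.03, without NC 1). The number of components at an unadjusted p under 0.05 ran from 1 to 14 with 1 library left out, while the share of all genes ran from 9.26% to 35.5%. The median log2FC of the components was 0.19 with library size only and -0.040 after the length correction, and ran from -0.039 (without NC 2) to 0.042 with 1 library left out. Scaling by library size alone turned the split of passing genes from 35.2% to 63.5% higher and gave log2FC values of 0.16 for *AKT2*, 0.078 for *TSC2*, 0.15 for *TBC1D7*, 0.011 for *PRKAG1* and 0.0080 for *RPTOR*. The length correction gave 0.11 for *TBC1D7*, -0.0017 for *MTOR* and -0.070 for *RICTOR*. With 1 library left out, log2FC values ran across 0 for *AKT2* (-0.12 to 0.095, above 0 without NC 1 or si-circZFR 2), *TSC2* (-0.34 to 0.12, above 0 without NC 1), *TBC1D7* (-0.11 to 0.039, above 0 without NC 1 or si-circZFR 2), *PRKAG1* (-0.38 to 0.027, above 0 without NC 2 or si-circZFR 2), *RICTOR* (-0.055 to 0.17, below 0 without NC 2) and *RRAGA* (-0.41 to 0.0057, above 0 without NC 2). *ZFR* missed the FDR threshold by limma with no filter (FDR = 0.226), without NC 2 (0.0833) and without si-circZFR 2 (0.0524). Beyond what these alternatives change by construction, the cause was not tested. A library left alone in its group was assumed to vary like the other group.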

Other observations

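Genes that FOXO factors are known to activate were also looked at, since *FOXO3* and *FOXO1* were on the lower side in si-circZFR. Of 12 such genes, 11 were tested (*TXNIP* was too low), none passed, 2 were higher (18.2%, beside 10.6% of all genes) and none lower (beside 11.9%) by limma at an unadjusted p under 0.05. The log2FC was below 0 in 5 of the 11 (45.45%, beside 49.6% of all genes). The groups were apart for 3 on each side (27.3% each, beside 27.8% higher and 28% lower of all genes). The median log2FC was 0.07, beside 0.0035 over all genes tested. *SOD2*, which encodes the mitochondrial superoxide dismutase, was at 81.9 and 81.2 scaled RPKM in NC and at 120.0 and 138.7 in si-circZFR (log2FC 0.65, SE 0.19, FDR = 0.114 by limma). *KLF6*, a transcription factor gene, was at 18.7 and 16.1 in NC and at 23.6 and 29.1 in si-circZFR (log2FC 0.57, SE 0.18, FDR = 0.144 by limma). Both were higher in both si-circZFR libraries. On the other side, *CDKN1B*, which encodes the cell cycle inhibitor p27, was at 13.5 and 14.1 in NC and at 10.3 and 12.3 in si-circZFR (log2FC -0.27, SE 0.17), and was named after its values were seen.

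Among the other pathway genes, *DDIT4*, a stress-induced inhibitor of mTORC1, was at 65.6 and 73.4 scaled RPKM in NC and 92.8 and 99.7 in si-circZFR, with a log2FC of 0.46 (SE 0.18, FDR = 0.191 by limma). *IGF1R*, the receptor of insulin-like growth factors, was at 24.3 and 16.8 in NC and 31.1 and 28.0 in si-circZFR, with a log2FC of 0.52 (SE 0.21, FDR = 0.205 by limma). *GATSL3* (now *CASTOR1*), an arginine sensor for mTORC1, was at 25.5 and 20.2 in NC and 17.4 and 14.2 in si-circZFR, a log2FC of -0.50, and *SGK1*, a kinase related to AKT, had -0.49. These 4 were named after their values were seen. *RPS6*, the ribosomal protein that S6 kinases phosphorylate, was at 794.8 and 1561 in NC and 561.2 and 622.1 in si-circZFR, so that the NC libraries were further apart from each other than NC 1 was from si-circZFR, and the log2FC of -0.91 (SE 0.41, FDR = 0.246 by limma) had no unadjusted p under 0.05.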
